A study of Drosophila melanogaster with 47 samples.

Results

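The regions described here were bound by Notch alone. They are merged peak regions of Drosophila melanogaster that hold a Notch peak and no peak of any of 15 other lists. Peaks of all 16 deposited lists on the chromosome arms 2L, 2R, 3L, 3R, 4 and X were joined wherever they overlapped by at least 1 bp, which gave 6511 regions. Of these, 817 held Notch peaks only, which is 12.5% of all regions and 34.3% of the 2380 regions with a Notch peak (95% Clopper-Pearson interval 32.4 to 36.3). Each of the 817 regions held exactly 1 Notch peak, so a region and its peak are the same interval, and the other 1631 Notch peaks on the arms are called shared. The members were chosen by the positions of the authors' peaks, that is by overlap, so the absence of other peaks is not a result. All shares below are descriptions with exact intervals that cover counting error only.

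The study mapped 14 transcriptional regulators by ChIP-seq, a method that enriches sheared chromatin with an antibody and sequences the DNA it carries. It comprised 35 immunoprecipitated samples and 12 inputs, which are chromatin taken without enrichment. Notch was recovered from larvae of a Notch-GFP line (stage label W3L) with an anti-GFP antibody in 2 replicates, beside 1 input of the same line. Both replicates are represented by 1 peak list, so no value per replicate was at hand and no test between conditions was made. Anti-GFP was also used for Stat92E in embryos of 0 to 12 h, Hr78 in larvae and also in embryos aged 8 to 16 h, and Lola (line LolaI-GFP) and AbdB in larvae, each in a line named for the tagged protein. Antibodies against the regulators themselves were used for Su(H), insv, h and dm in Kc167 cells, CG8478 in S2 cells, Cmi in embryos of 0 to 8 h of an Exd-GFP line, br in embryos of 0 to 8 h, prd (antibodies RF12 and RF13) in embryos of 0 to 12 h, and cnc in adult females. Kc167 and S2 are established Drosophila cell lines of embryonic origin. The labels do not say which cells carried the GFP-tagged Notch, whether whole larvae or dissected tissue were used, or how much of the protein the tag was fused to.

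Notch is a transmembrane receptor of signals between neighbouring cells. When a ligand such as Delta or Serrate binds it, the receptor is cleaved and its intracellular domain moves to the nucleus. That domain does not bind DNA on its own but joins the DNA-binding protein Su(H) and the coactivator Mastermind, and the best known targets are the repressor genes of the Enhancer of split complex. In larvae the pathway is known for its part in growth and patterning of the imaginal discs and in the development of the nervous system. A Notch peak in ChIP-seq is therefore usually read as contact with DNA through partner proteins.

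Being alone was common in this series and was not special to Notch. Of the 6511 merged regions, 64.5% held peaks of 1 list only. Among the 16 lists, the share of a list's own regions that it held alone ranged from 4.07% for AbdB (28 of 688) to 67.4% for cnc (328 of 487). Notch, at 34.3%, stood below Su(H), of whose 1814 regions 908 were held alone (50.1%, 47.7 to 52.4), and below Cmi with 779 of 1592 (48.9%, 46.4 to 51.4). It stood close to CG8478 with 37.3% (34.6 to 40.1) and Lola with 30.9% (25.8 to 36.4), whose intervals overlap that of Notch. The other larval lists reached 7.54% for Hr78 and 4.07% for AbdB. These shares depend on the length and threshold of each list and on how many other lists came from similar material, and the read depth per sample is unknown.

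Regions bound by Notch alone were mostly weak Notch peaks by the authors' score, which is the −log10 p of the peak. Scores of the 817 ranged from 6.48, the lowest value in the Notch list on the arms, to 21.8, with quartiles of 7.28 and 9.98 and a median of 8.25 (95% interval of the median 8.16 to 8.45). Shared Notch peaks ranged from 6.48 to 51.8 with a median of 12.3 (11.9 to 12.6). Both classes thus began at the same floor and overlapped over the whole range of the Notch-alone regions, and the upper part of the range held shared peaks only. A score of at least 10 was reached by 200 of the 817 (24.5%, 21.6 to 27.6), where 51.8% of all 2448 Notch peaks and 65.5% of the shared ones did so (63.1 to 67.8).

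Fold enrichment over background, the authors' linear ratio at the peak, separated the classes less than the score did. It ranged from 2.17 to 4.87 in the Notch-alone regions, with a median of 2.83 (2.80 to 2.85), and from 2.03 to 7.81 in shared Notch peaks, with a median of 3.18 (3.13 to 3.24). A fold of at least 3 was found at 281 Notch-alone regions (34.4%, 31.1 to 37.8), against 51.0% of all Notch peaks and 59.4% of shared ones (56.9 to 61.7). Both ends of the fold range were held by shared peaks. Fold and score came in steps, so many regions had equal values. The 817 scores took 504 distinct values, and the most frequent pair, a score of 7.21 with a fold of 2.85, was found at 23 regions.

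The share of Notch peaks that stood alone grew steadily from the top of the list to its end when peaks were ordered by score. Among the 245 peaks with the highest scores, 1 stood alone (0.408%, 0.0103 to 2.25), and in the next 245 it was 19 (7.76%, 4.73 to 11.8). The share was 29.1% in the group of 244 peaks with scores of 10.3 to 11.8, and 58.2% in the 244 peaks with the lowest scores (51.7 to 64.5). With peaks ordered by fold the share did not keep growing. It was 4.49% in the 245 peaks of highest fold (2.26 to 7.89), reached 49.0% in both groups of 245 with folds of 2.64 to 2.85 (42.6 to 55.4), and was 36.1% in the 244 peaks of lowest fold (30.0 to 42.4). The peaks of that last group were wider, with a median of 351 bp against 264 bp in the group with folds of 2.64 to 2.75. Width did not order all groups, since the group with folds of 2.85 to 3.03 had a median of 357 bp and a share of 42.9%. The part of width in these shares was not tested.

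**Figure D1:**
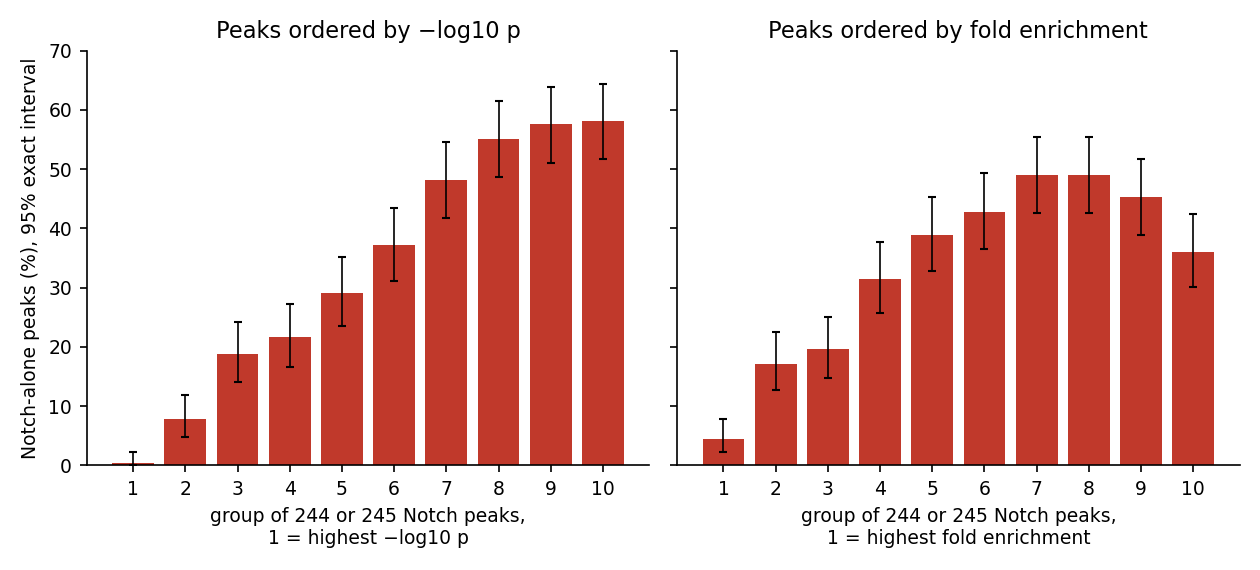
Share of Notch peaks that stood alone (vertical axis, percent, bars with 95% exact intervals) in successive groups of 244 or 245 peaks, ordered from the highest to the lowest −log10 p (left) or fold enrichment (right). By score the share runs from 0.408% to 58.2%. By fold it reaches 49.0% and is 36.1% in the last group.

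Notch-alone regions were also narrow. Their widths ranged from 64 to 1368 bp with a median of 253 bp (232 to 265), against 66 to 2879 bp and a median of 508 bp (490 to 533) in shared Notch peaks, and 88 of the 817 were at least as wide as the median shared peak (10.8%, 8.73 to 13.1). Width bears directly on the rule, because a wide peak has more room to overlap another. Among the 816 narrowest Notch peaks (64 to 283 bp), 57.8% stood alone (54.4 to 61.3). That share was 33.6% in the 816 of middle width (30.3 to 36.9) and 8.70% in the 816 widest (6.86 to 10.8).

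Among narrow peaks the medians of the classes lay closer together than among wide peaks. Both median scores of the narrowest group lay toward the lower end of the list's range of 6.48 to 51.8. Intervals of the medians by width were not computed. In the narrowest group the median score was 7.86 in 472 Notch-alone and 8.49 in 344 shared peaks, and the median fold was 2.77 and 2.79. In the middle group the median scores were 8.87 and 11.3, with folds of 2.89 and 3.11. In the widest group they were 9.84 in 71 Notch-alone and 15.3 in 745 shared peaks, with folds of 2.92 and 3.44. The difference in median fold, Notch-alone minus shared, was thus −0.0217 in the narrowest and −0.529 in the widest group, both within a list of 1 antibody and 1 material. Score and width moved together less in the Notch-alone regions (Spearman's rho 0.34 across 817 peaks) than in the shared peaks (0.50 across 1631), as a description of peaks that come from the same libraries. The summit of the signal lay near the middle of the interval in both classes, at a median of 0.50 of the peak width from its start in Notch-alone regions and 0.49 in shared peaks.

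**Figure D2:**
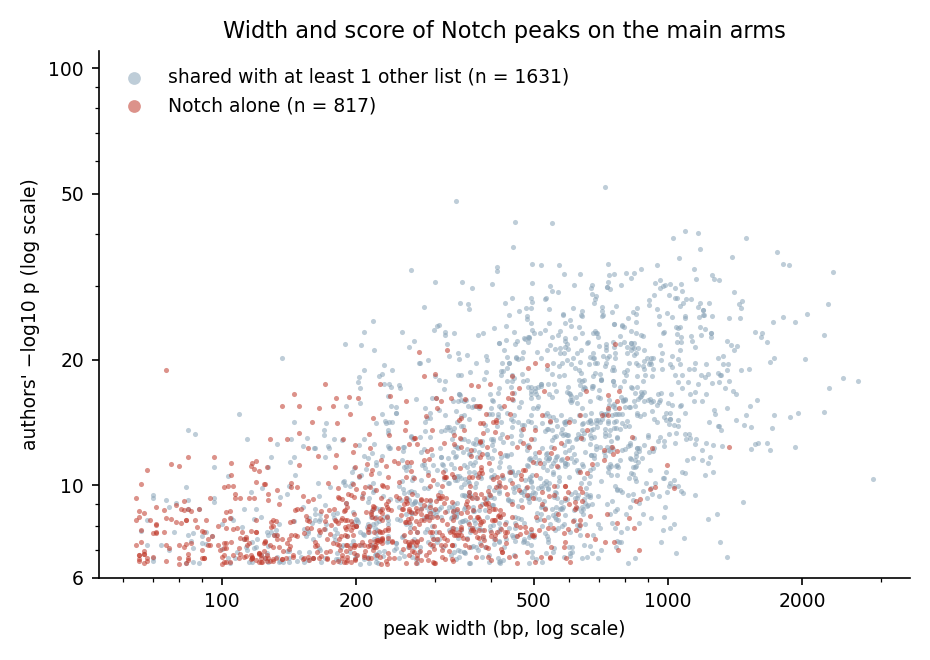
Width in bp (horizontal, log scale) and authors' −log10 p (vertical, log scale) of each of the 2448 Notch peaks on the main arms, with Notch-alone regions in red and shared peaks in grey blue. Notch-alone regions sit at low width and low score, with medians of 253 bp and 8.25, inside the cloud of the shared peaks.

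Along the number of other lists in a region, the median score, width and fold of the Notch peak were lowest in the Notch-alone regions. The rule used this number, and a wide peak has more room to overlap several lists. The trend is thus a description and cannot show whether the Notch-alone regions are a separate group. The median Notch score was 8.25 with no other list, 9.64 in 469 peaks with 1 other list (9.32 to 9.98), 12.2 in 390 peaks with 2 (11.2 to 12.8), 13.0 in 327 peaks with 3 (12.1 to 14.0) and 16.5 in 445 peaks with 4 or more (15.7 to 17.7). Median width went from 253 bp through 357, 478.5 and 534 bp to 754 bp over the same classes. Median fold went from 2.83 through 2.92, 3.12 and 3.29 to 3.54. The 10th to 90th percentile of the score, 6.73 to 13.0 in the Notch-alone regions and 6.95 to 16.1 with 1 other list, overlapped over most of its length.

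**Figure D3:**
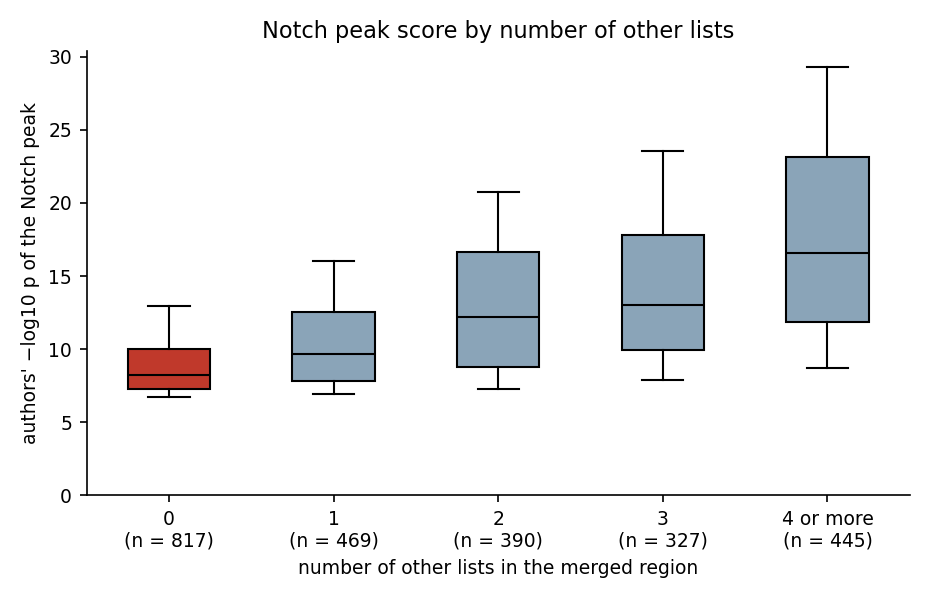
Authors' −log10 p of Notch peaks (vertical axis) by the number of other lists in the merged region (horizontal axis), as boxes from the first to the last quartile with the median as a line and whiskers at the 10th and 90th percentiles. The median is 8.25 for the 817 Notch-alone regions in red and 16.5 for the 445 peaks with 4 or more other lists, and neighbouring boxes overlap.

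The 10 highest-scoring Notch-alone regions had scores of 18.2 to 21.8, folds of 4.03 to 4.87 and widths of 75 to 762 bp, and they took ranks 229 to 393 among the 2448 Notch peaks. The first was on X at 9249653 to 9250414 (build dm3, here and throughout), with a score of 21.8 and a fold of 4.39, and its nearest peak of another list was a Lola peak 821 bp away. The next was on 3R at 26724443 to 26724761 and had the highest fold of the 817, 4.87, with a score of 21.1. Its nearest foreign peak, of prd with RF12, lay 13218 bp away. The third, on 3L at 2166823 to 2167098, had a fold of 4.74 and a score of 20.9 and lay 25057 bp from a CG8478 peak.

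The remaining members of these 10 are given in order of score. They lay on X at 12372302 to 12372803 (score 19.6), on 3R at 22897398 to 22897933 (19.4), on 3L at 20399386 to 20399870 (19.1), on 3R at 26901920 to 26901994 (18.9), on 2L at 7194353 to 7194653 (18.4), and on 3R at 2242010 to 2242456 and 26311761 to 26312043 (18.2 each). The 3R region at 26901920 was 75 bp wide, among the narrowest of all members, although its fold was 4.59. Of the 10, 5 were on 3R, 2 had a peak of another list within 1000 bp, and 6 had no other Notch peak within 10000 bp. Among all 817 these shares were 23.5%, 24.7% and 49.4%, so 10 regions do not set these members apart. No gene is named at these positions, since no annotation of build dm3 was used here, and for the same reason the DNA under the peaks, including any Su(H) site, was not analysed here.

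A peak of another list lay within 10000 bp of most Notch-alone regions, and by the rule none overlapped. Shares at arbitrary positions on the arms were not computed, so nearness is not read as a trait of these regions. The gap to the nearest peak of another list had a median of 5741 bp (4976 to 6757), quartiles of 1047 and 15777 bp and a range of 22 to 123747 bp. It was at most 500 bp at 145 regions (17.7%, 15.2 to 20.5), at most 1000 bp at 202 (24.7%, 21.8 to 27.8) and at most 10000 bp at 516 (63.2%, 59.7 to 66.5), and it was above 50000 bp at 21 (2.57%, 1.60 to 3.90). Fold differed slightly with this distance, and the intervals of the score overlapped. The median score was 8.00 in the 145 regions with a foreign peak within 500 bp (7.73 to 8.25) and 8.71 in the 157 regions with none within 20000 bp (7.94 to 9.09), with median folds of 2.73 (2.69 to 2.77) and 2.90 (2.85 to 3.00). Their median widths were 272 and 253 bp. A group of 111 regions (13.6%, 11.3 to 16.1) had no peak of any list, Notch included, within 20000 bp, and its median score of 8.26, fold of 2.86 and width of 257 bp were close to those of all 817.

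**Figure D4:**
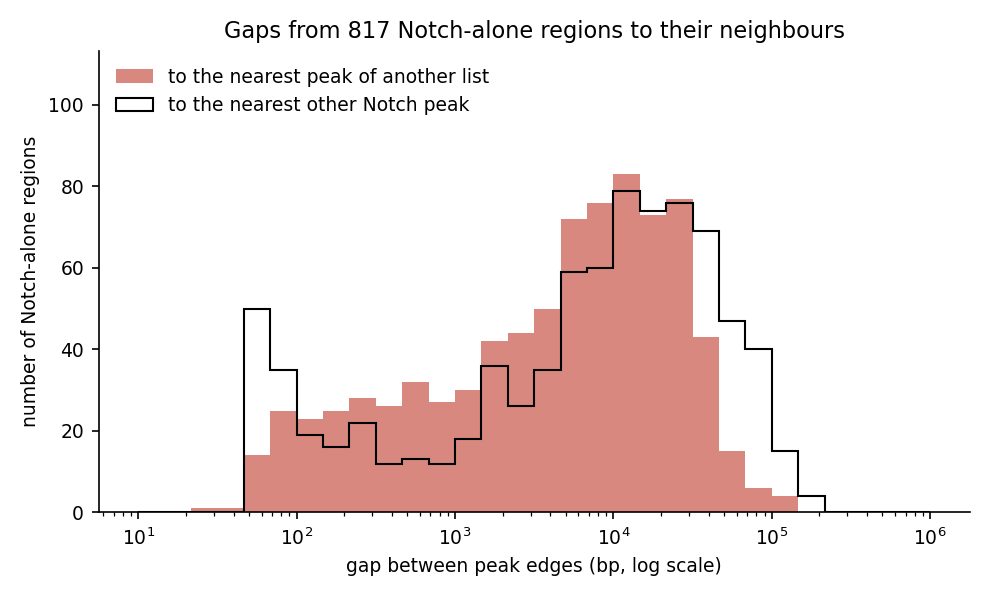
Gap in bp from the edge of each of the 817 Notch-alone regions (horizontal axis, log scale) to the nearest peak of another list (red bars) and to the nearest other Notch peak (black line), as the number of regions per bin. The red bars spread around a median of 5741 bp, and the black line has a second, narrow rise just above its smallest gap of 51 bp.

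The 5 regions farthest from other regulators had scores of 8.08 to 10.5 and took ranks 1194 to 1805 in the Notch list. The median score of all Notch-alone regions was 8.25. The farthest lay on X at 46131 to 46450, at the end of the span covered by all lists, 123747 bp from the nearest foreign peak (Cmi), with a score of 8.08 and a fold of 2.80. On 2L, 2 Notch-alone regions at 15609103 to 15609471 and 15613582 to 15613860 formed a pair 4110 bp apart, 109239 and 113718 bp from the nearest foreign peak, which was of Su(H). Their scores were 9.50 and 8.79 and their folds 3.10 and 3.12. A region on X at 11922553 to 11923175 (score 8.86, fold 2.79) lay 103241 bp from a cnc peak. Another on 3L at 2316107 to 2316342 (score 10.5, fold 3.40) lay 87234 bp from an embryonic Hr78 peak.

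At the boundary of the rule, the 3 members and the 3 shared peaks named here had scores in overlapping ranges, 7.76 to 9.50 and 6.52 to 10.2. The smallest gaps were 22 bp, to a CG8478 peak from the region on 3R at 2948039 to 2948154 (score 7.76), 38 bp, to an AbdB peak from the region on X at 12636136 to 12636262 (score 9.50), and 53 bp, to an AbdB peak from the region on 2R at 3906898 to 3906976 (score 8.16). Just outside, the smallest overlaps were 7 bp with Su(H) on 3L at 5919632 to 5919706 (score 9.21), 8 bp with larval Hr78 on 2R at 2637040 to 2637566 (score 10.2) and 8 bp with br on 2R at 19911672 to 19911775 (score 6.52). Few peaks were this close to the line. The gap was at most 100 bp at 42 of the 817 members and at most 50 bp at 2 of them. The overlap was under 50 bp at 15 of the 1631 shared peaks.

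The regulator nearest to a Notch-alone region was mostly one with a long list. Su(H), the DNA-binding partner of Notch in the pathway, here mapped in Kc167 cells, was nearest at 178 regions (21.8%, 19.0 to 24.8). Its peaks made up 20.1% of all peaks of other lists on the arms. Larval Hr78, a nuclear receptor, was nearest at 110 (13.5%, 11.2 to 16.0, against 12.5% of peaks), and Cmi, which belongs to a coactivator complex with histone methyltransferase activity, at 111 (13.6%, 11.3 to 16.1, against 16.8%). For cnc, a bZIP factor related to mammalian Nrf2, the share was 7.34% (5.65 to 9.35) against 4.89% of peaks, and for insv, a corepressor that acts with Su(H), it was 0.979% (0.424 to 1.92) against 2.17%. In 11 lists the interval of the first share held the second, and it did not in those of Cmi, cnc, prd with RF12 and insv.

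Further peaks of other lists in the surrounding 10000 bp, counted outside the region itself, were less frequent at Notch-alone than at shared Notch regions for all 15 lists, with intervals that did not overlap for 7. Any other list had such a peak at 63.2% of the 817 and at 72.9% of the 1563 shared regions (70.6 to 75.1). For Su(H) the shares were 27.7% (24.6 to 30.9) and 36.0% (33.6 to 38.4), for larval Hr78 26.1% (23.1 to 29.2) and 34.9% (32.5 to 37.3), for Cmi 22.4% (19.6 to 25.4) and 33.5% (31.1 to 35.9), and for CG8478 20.3% (17.6 to 23.2) and 31.8% (29.5 to 34.2). The intervals overlapped for Lola (8.57% and 10.7%), br (6.36% and 8.83%), cnc (82 of 817 and 187 of 1563 regions), dm, h, insv and both prd lists. Within 1000 bp the lower share at Notch-alone regions did not hold for every list. Lola had a peak at 3.55% of Notch-alone regions (2.39 to 5.06) and at 2.94% of shared ones (2.16 to 3.91). The share was also higher at Notch-alone regions for prd with RF12 (1.59% and 1.41%) and with RF13 (0.612% and 0.512%). The same held for dm (0.245% and 0.192%) and h (1.10% and 1.09%). The intervals overlapped in each of these lists, and the remaining lists had the lower share at Notch-alone regions. The rule itself used these lists, so the shares describe the neighbourhood and were not tested. Of the 817, 62 lay within 5000 bp of a region held by 5 or more lists (7.59%, 5.87 to 9.62).

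Some Notch-alone regions lay directly beside another Notch peak. The gap between neighbouring Notch peaks was never below 51 bp, and 117 of the 2442 gaps were at most 80 bp, against 75 gaps of 81 to 200 bp. Another Notch peak lay within 200 bp of 119 Notch-alone regions (14.6%, 12.2 to 17.2) and of 249 shared peaks (15.3%, 13.6 to 17.1). For 59 of the 119 a shared Notch peak lay that close. These 59 had a median score of 8.16 and a median width of 271 bp, values close to those of the 698 regions with no Notch peak within 200 bp (8.26 and 258 bp). The other 60 had only Notch-alone peaks that close, and their median score was 8.25. They were narrower, with a median of 183 bp (128 to 228) against 258 bp (234 to 270) in the 698. The median gap from a Notch-alone region to the nearest other Notch peak was 9612 bp (7840 to 11832), against 6808 bp (5787 to 7799) from shared peaks.

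The Notch-alone regions fell into 533 bins of 100 kb, of which 344 held 1 region, 119 held 2, 50 held 3, 15 held 4 and 5 held 5. The 3 fullest bins, ordered by best score, were on 3L from 19400001 to 19500000, where 5 of 7 Notch peaks stood alone within 32036 bp with scores of 7.21 to 16.2, on 3R from 2000001 to 2100000 with 5 of 6 (7.21 to 12.9), and on 3L from 10600001 to 10700000 with 5 of 8 (6.70 to 12.5). Read along the arms, 318 Notch-alone regions stood between shared Notch peaks or an arm end, and 499 followed one another in runs. The longest run was of 7 Notch peaks on X from 16716388 to 16838103. Counts for a random order of both classes were not computed, so clustering is not read from these numbers.

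All main arms carried Notch-alone regions, and on 2R they made up a smaller share of their class than the shared Notch peaks did of theirs. There were 192 on 3R, 176 on X, 160 on 3L, 144 on 2L, 126 on 2R and 19 on 4. Taken as a share of the Notch peaks of an arm, 37.2% stood alone on 2L (32.4 to 42.2), 35.6% on 3L (31.1 to 40.2), 33.7% on 3R (29.9 to 37.8), 33.7% on X (29.6 to 37.9), 29.7% on 4 (18.9 to 42.4) and 27.7% on 2R (23.6 to 32.1). Beside these stands 33.4% of the whole list. The arms X, 3R, 3L and 4 did not differ in this order beyond their intervals, and the intervals of 2L and 2R did not overlap each other. On the scale of the classes, 2R held 15.4% of Notch-alone regions (13.0 to 18.1), 20.2% of shared Notch peaks (18.2 to 22.2) and 19.4% of all merged regions (18.4 to 20.3). Median scores by arm lay between 8.24 and 8.37 and median folds between 2.81 and 2.88, so the arms were alike in the strength of these peaks.

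**Figure D5:**
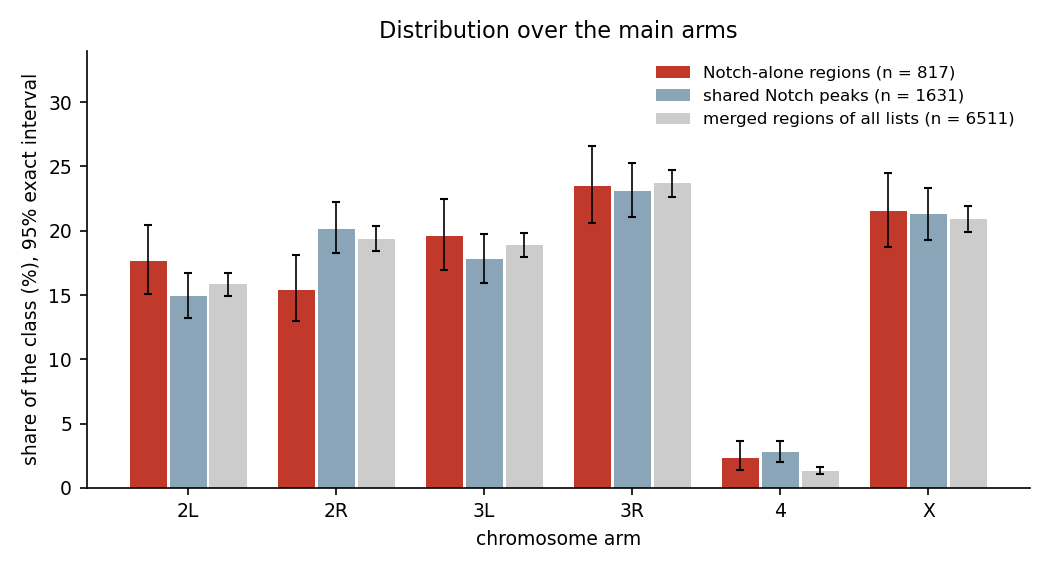
Share of each class on the 6 main arms (vertical axis, percent, with 95% exact intervals) for the 817 Notch-alone regions, the 1631 shared Notch peaks and the 6511 merged regions of all lists. The classes track one another on 3R and X, and on 2R the Notch-alone regions hold 15.4% against 20.2% of the shared Notch peaks.

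With the 5 long arms pooled, the stretch next to the centromere held the lowest share of Notch peaks that stood alone, but this did not hold on every arm. With the span of each arm, taken from its outermost peaks, divided into 10 equal stretches counted from the telomere, 38.7% of 269 Notch peaks stood alone in stretch 1 (32.8 to 44.8) and 24.9% of 209 in stretch 10 (19.2 to 31.3). The stretches between lay between 31.2% and 39.8%, and the interval of stretch 10 overlapped theirs in all but stretch 5 (33.6 to 46.1). In stretch 10 the arms were unlike one another, with 1 of 21 on 3L, 4 of 21 on X, 7 of 56 on 2R, 13 of 43 on 2L and 27 of 68 on 3R. Stretch 10 had the lowest share on 3L, X and 2R. On 2L the lowest share was in stretch 4 (7 of 41) and on 3R in stretch 6 (13 of 57).

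Chromosome 4, the small and largely heterochromatic autosome, carried 19 Notch-alone regions and 45 shared Notch peaks. It held 2.33% of the Notch-alone regions (1.41 to 3.61) and 1.34% of all merged regions (1.07 to 1.65), and 15.6 Notch-alone regions per Mb of its span against 5.98 to 7.92 per Mb on the other arms. The shared Notch peaks were dense there too, with 2.76% of them on chromosome 4 (2.02 to 3.67) and 36.9 per Mb against 10.6 to 15.6 per Mb elsewhere. Its members stood close to other peaks. The median gap to a foreign peak was 695 bp (224 to 1457), where the medians of the other arms lay between 4299.5 and 7546 bp, and 9 of the 19 had a foreign peak within 500 bp. With peaks within 500 bp joined, 8 of the 664 Notch-alone peaks were on chromosome 4 (1.20%). The 3 with the highest scores lay at 951308 to 951452 (score 16.5, fold 4.17, 76 bp from an h peak), at 229930 to 230313 (score 14.1, fold 3.64, 224 bp from a larval Hr78 peak) and at 84480 to 84729 (score 10.2, fold 3.16, 96 bp from a larval Hr78 peak).

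Among the 15 other lists left out one at a time, the larval Hr78 and AbdB lists moved the number of Notch-alone regions most. Without the larval Hr78 list the number was 953, without AbdB 917 and without Cmi 891. Without Su(H) it was 861, although the Su(H) list was the longest of the 15. That list came from Kc167 cells, and Su(H) was not mapped in larvae here. With only the 5 other anti-GFP lists 1175 regions stood alone, and with only the 10 lists of antibodies against the regulators it was 1402. All 4 larval lists were made with anti-GFP, and 2 of the 6 anti-GFP lists came from embryos. The parts of stage and antibody in these numbers were not tested. Compared with the best-scoring 50% of each other list the number was 1242.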

How the data were processed

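Each group of immunoprecipitated samples had 1 deposited peak list for all its replicates. The lists have 10 columns without a header. The authors deposited a fold enrichment (linear ratio) and a −log10 p for each peak, called score here, and both were compared only among peaks of the same list. The summit offset in bp is a further deposited value. Build dm3 and the tools CASAVA 1.7.0, BWA and MACS2 appear in the submitters' processing notes. Their order, their settings, the controls and any pooling of reads were not given in the sources used here. Read depth per sample is unknown, and the deposited thresholds differ between lists, which moves what counts as alone.

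Of 12745 peaks, 12462 on the main arms were used, with positions written 1-based. Merging was checked on simulated lists. Shares have exact Clopper-Pearson intervals at 95%, and medians have exact order-statistic intervals. No significance test was run, since peaks are not replicates. The labels do not say whether replicates came from separate animals. Regions were named by rule: the 10 of highest score, the 5 farthest from another list, the 3 nearest to the boundary on either side, the 3 fullest bins of 100 kb (ties by best score, a choice made after the data were seen) and the 3 best on chromosome 4. The longest run was named after its values were seen. Members and lists were chosen with earlier results of these data known. A gene table of a later assembly was not used for positions. Python 3.11.15, numpy 2.4.6, scipy 1.17.1, pandas 2.3.3 and matplotlib 3.10.9 were used.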

Additional observations from a re-analysis of the deposited data

Results flagged for a closer look

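Outside the main arms, on heterochromatic and unplaced sequences that the comparisons did not use, 27 of 68 Notch peaks overlapped no other list (39.7%, 28.0 to 52.3). Their scores ranged from 6.48 to 23.3 with a median of 8.25, and their median fold was 2.94 and their median width 174 bp. They are given because the comparisons left these sequences out, and on the main arms 33.4% of Notch peaks stood alone. No input values were analysed here, so the level in control chromatin is not known.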

How the results depend on the processing

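The 817 Notch-alone regions stayed within 1.5 times of that number in 23 of 29 alternatives, at 578 to 1175, among them each of the 15 other lists left out in turn (817 to 953), a 50% overlap of the shorter peak (861) and peaks within 200 bp joined (688, added after the data were seen). Leaving out a list can only keep or raise the number, so those 15 settings are a weak check of it. The number was 393 with peaks within 5000 bp joined, 379 with the best-scoring 50% of every list, 190 with that of the Notch list only and 1242 with that of the other lists only, and it was 1402 against the 10 lists of direct antibodies and 1260 against the other larval lists. The median score of Notch-alone minus shared peaks (−4.04) kept its sign in all 8 alternatives. It was −3.32 with peaks within 500 bp joined, and −0.626, −2.45 and −5.44 in the narrowest, middle and widest peaks. The difference in median fold (−0.352) also kept its sign, at −0.274 with peaks within 500 bp joined, −0.235 in the best-scoring 50%, and −0.0217, −0.226 and −0.529 in the groups of width. The difference in median width (−255 bp) lay between −299 and −234 bp. Shares on the arms moved beyond their intervals only on chromosome 4, to 1.20% and 1.40% with peaks within 500 and 200 bp joined. The median gap to another list, 5741 bp, was 8539 and 7556 bp in those settings and 11436 bp in the best-scoring 50%; joining and fewer peaks lengthen it by construction. No paired analysis was possible because each group has a single list for all its replicates, and for the same reason no replicate could be left out. Unknown depth limits any statement that another regulator is absent from these regions.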

Other observations

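Notch regions with exactly 1 other list, the regions most like the Notch-alone ones, numbered 462. The single partner was larval Hr78 in 130 of them (28.1%), AbdB in 94 (20.3%), Cmi in 62 (13.4%), embryonic Hr78 in 42 (9.09%), and Su(H) and CG8478 in 36 each (7.79%), while Su(H) had 2016 peaks on the arms and AbdB 722. The Notch peaks of the 36 regions paired with Su(H) alone had a median score of 7.71 and a median fold of 2.76. These stand beside 8.25 and 2.83 in the Notch-alone regions, and intervals of the medians by partner were not computed. Those paired with AbdB alone had 11.6 and 3.30, and those with larval Hr78 alone 11.1 and 2.96. Those with Lola alone, 9 regions, had 7.90 and 2.55. AbdB, larval Hr78 and Lola all share the antibody and the stage label with Notch, while the Su(H) list came from Kc167 cells. The part of antibody or stage in these values was not tested.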
